A study of Mus musculus with 13 samples.

Results

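Centromere and kinetochore genes were compared between LPS-stimulated spleen B cells that lacked Whsc1 and WT B cells. The set was taken by symbol from the deposited gene table: 19 protein-coding genes whose symbol begins with Cenp, and 15 named genes of the outer kinetochore, the Ska complex and the chromosomal passenger complex, 34 genes of 47643 in all. Whsc1 encodes a methyltransferase of histone H3 lysine 36. The Whsc1-KO group held 6 libraries with the genotype Whsc1-/-, and the WT group held 7 libraries, all on a C57BL/6 background. Whsc1-/- embryos die before birth, so each animal was an irradiated RAG1-KO recipient, which makes no mature lymphocytes of its own, given fetal liver cells from embryos of either genotype. Donor and host cells were not told apart in the libraries, and non-lymphoid host cells may remain after irradiation. Spleen cells were depleted of CD43-positive cells and cultured for 48 h with lipopolysaccharide (LPS), a bacterial product that makes B cells divide and switch antibody class, at 25 µg/ml. Messenger RNA was read in pairs of 76 bases with a strand-specific kit. The submitters describe the libraries as independent biological replicates, and neither age nor sex of the animals was given.

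The centromere is the part of a chromosome where the spindle attaches during cell division. It is marked by nucleosomes that hold the histone variant CENP-A, and on these sits a network of CENP proteins that stays through the cell cycle. In mitosis this inner network recruits the KMN network, whose Ndc80 complex binds microtubules, together with the Ska complex and a fibrous corona, while the chromosomal passenger complex corrects faulty attachments. The messenger RNAs of many of these proteins are known to peak in G2 and mitosis in dividing cells, and LPS drives resting spleen B cells into division. Protein roles given below are those known from human and other vertebrate cells.

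Libraries held 39101317 to 49443099 reads in genes in Whsc1-KO and 38881663 to 53019516 in WT, and all 34 genes had a normalized count of 10 or more in every library. Whsc1 itself lay between 3733 and 5261 normalized counts in Whsc1-KO and between 5537 and 7459 in WT, a log2 fold change of -0.54 (adjusted p = 0.00049), so RNA from the targeted gene was lower but still present; the labels do not say which part was deleted. Whsc1 RNA differed within the Whsc1-KO group, at 3733 to 4419 in replicates 1 to 3 and 4842 to 5261 in replicates 4 to 6. Its fold change on the log2 scale was -0.71 without replicates 4 to 6, -0.84 when replicates 1 to 3 of both genotypes were compared and -0.27 among the later ones. The 3 Whsc1-KO libraries with the highest levels of the 34 genes thus held more Whsc1 RNA than the other 3. Whsc1-KO replicates 4 to 6 stood apart from replicates 1 to 3, and results are therefore given with and without them; the labels name no batch. By Xist, 0 of Whsc1-KO replicates 1 to 3 and 3 of WT replicates 1 to 3 were female, against 2 of 3 and 2 of 4 among the later replicates, so sex and genotype cannot be told apart within replicates 1 to 3. B cell markers were high in every library. Their summed normalized counts were 509373 to 548892 in Whsc1-KO replicates 1 to 3, 384528 to 399176 in replicates 4 to 6 and 576901 to 672785 in WT. Of these 9 markers 6 were lower in Whsc1-KO with all libraries and 5 without Whsc1-KO replicates 4 to 6. Within replicates 1 to 3 of both genotypes 2 were lower, and among the later ones 9. The shares of all genes called lower in these 4 fits were 25.7%, 15.6%, 8.76% and 30.1%. With all libraries, markers of several other cell types differed by genotype, and they also differed by the split of the Whsc1-KO libraries. Of all genes tested, 26.1% were called higher with all libraries. Summed erythroid markers ran from 2587 to 3081 in Whsc1-KO replicates 1 to 3, from 12955 to 194469 in replicates 4 to 6 and from 871 to 3326 in WT; 5 of the 6 tested, of 14 listed, were higher. Summed myeloid markers ran from 2856 to 3307, from 12550.0 to 16881 and from 1248 to 2373 in the same 3 sets of libraries. Here 7 of the 7 tested, of 11 listed, were higher, and Elane was at 0 throughout. Without Whsc1-KO replicates 4 to 6, 1 of the 6 erythroid and 2 of the 7 myeloid markers were higher. The share over all genes was 14% there, near the erythroid count. Within replicates 1 to 3 of both genotypes the erythroid and myeloid counts were 4 and 3, where 6.79% of all genes were called higher. Summed plasmablast markers ran from 73958.5 to 126522 in Whsc1-KO replicates 1 to 3, from 125808 to 172530.0 in replicates 4 to 6 and from 61420 to 162883 in WT. Of these 5 markers 2 were higher, Sdc1 at 1.44 on the log2 scale (adjusted p = 0.00154) and Xbp1 at 0.51 (0.026). Without Whsc1-KO replicates 4 to 6 only Sdc1 passed, 1 of 5. Neither plasmablast count was far from the share over all genes in its fit. T and NK cell markers were near 0, with summed counts of 12.7 to 30.1 in Whsc1-KO and 2.4 to 17.7 in WT. The part of these other cells in the results below was not tested, and in bulk RNA fewer cells that express a gene and less RNA per cell cannot be told apart.

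Most centromere and kinetochore genes were higher in Whsc1-KO. With all libraries, 28 of the 34 rose and 0 fell in limma on log2(normalized count + 1), at a Benjamini-Hochberg adjusted p under 0.05 over 13947 genes tested; of all those genes, 26.1% were called higher and 25.7% lower. At an unadjusted p under 0.05, 0 members were lower; edgeR and DESeq2 on recovered reads each called 29 higher and 0 lower, and the authors' deposited table also had 29 higher and 0 lower at 0.05. Over the 34 genes the middle log2 fold change (median) was 0.60, from 0.05 for Cenpb to 1.44 for Cenpv, whereas the median over all genes tested was -0.00325. Without Whsc1-KO replicates 4 to 6 the median was 0.29, 11 members were called higher and 0 lower, and 14% and 15.6% of all genes were called higher and lower. Each of the 11 was among the 28: Pmf1, Nuf2, Spc24, Ska3, Incenp, Birc5, Cdca8, Cenpm, Cenpw, Cenpe and Cenpv. Within replicates 1 to 3 of both genotypes, 3 members were called higher, Cenpv, Pmf1 and Cdca8, and 0 lower. The median there was 0.16 and the shares over all genes were 6.79% and 8.76%; Cenpo, at -0.25, was the 1 member lower there at an unadjusted p under 0.05. Within the later replicates, 32 were called higher and 0 lower. Here the median was 0.94 and the shares over all genes were 30% and 30.1%; the 4 added to the 28 were Cenpa, Cenpj, Cenpo and Cenpq.

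**Figure D1:**
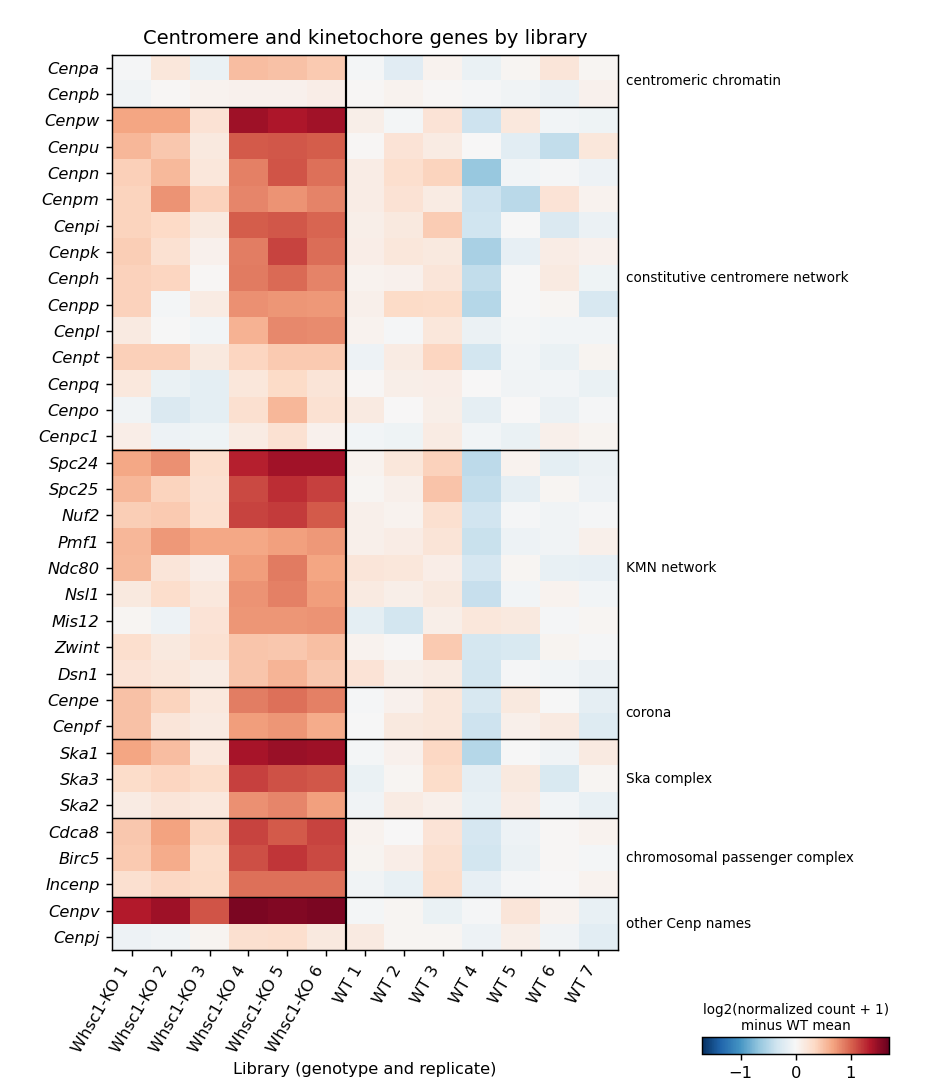
Colour gives log2(normalized count + 1) minus the WT mean for each of the 34 genes (rows, by role) in each library (columns, Whsc1-KO left of the line and WT right of it). Whsc1-KO replicates 4 to 6 are darkest for nearly every gene, Cenpv is high in all 6 Whsc1-KO libraries, and Cenpb and Cenpc1 are pale throughout.

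The rise was unequal among Whsc1-KO libraries. Averaged over the 34 genes, the log2 value stood above the WT mean by 0.36, 0.34 and 0.20 in Whsc1-KO replicates 1, 2 and 3 and by 0.80, 0.86 and 0.80 in replicates 4, 5 and 6, and WT libraries lay between -0.26 and 0.21. WT replicate 3, at 0.21, was above Whsc1-KO replicate 3. Replicates 4 to 6 of Whsc1-KO were all above replicates 1 to 3 in 30 of the 34 genes (88.2%), against 3867 of the 13947 genes tested (27.7%), and 0 members showed the opposite order. Those 3 libraries exceeded every WT library in 32 of the 34 genes, where 27% of all genes tested did; Whsc1-KO replicates 1 to 3 did so in 8 of the 34, against 11.2% of all genes. In 8 of the 34 genes (23.5%) every Whsc1-KO library was above every WT library, where 9.03% of all genes tested showed this: Cenpv, Cenpm, Cenpw, Pmf1, Nuf2, Ska3, Birc5 and Cdca8. Among WT libraries replicate 3 had the highest value in 21 genes and replicate 4 the lowest in 24, and Whsc1-KO replicate 3 was the lowest of its group in 22.

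Neither gene of centromeric chromatin passed in limma with all libraries. Cenpa encodes the histone H3 variant that marks the centromere. It had 4993, 6735 and 7789.6 normalized counts (lowest, median and highest library) in Whsc1-KO and 4727, 5517 and 6229 in WT. Whsc1-KO replicates 4 to 6 were above every WT library and replicates 1 to 3 lay within the WT range; the log2 fold change was 0.25 ± 0.11 (SE) and missed the threshold (adjusted p = 0.0625). Cenpa passed when Whsc1-KO replicate 1 (0.0264), Whsc1-KO replicate 3 (0.0132) or WT replicate 6 (0.0475) was left out. With all libraries it passed in edgeR (adjusted p = 0.0443), in DESeq2 (0.0348) and in the authors' own deposited test (0.0491). Cenpb, whose product binds a sequence box in centromeric satellite DNA, had 4057, 4433 and 4569 in Whsc1-KO and 3951, 4296 and 4451 in WT. Its groups overlapped almost fully, with a log2 fold change of 0.05 ± 0.04 (adjusted p = 0.398).

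In the constitutive centromere network 10 of 13 genes rose, and the median over the 13 was 0.58 on the log2 scale. Cenpw, whose product pairs with that of Cenpt through histone folds to link to the Ndc80 complex, had the largest change. Its counts were 269.9, 476 and 622 in Whsc1-KO and 178, 222 and 267 in WT, with no overlap, and its log2 fold change was 0.97 ± 0.19 (adjusted p = 0.00113); it was 0.53 without Whsc1-KO replicates 4 to 6, where it still passed. Cenpt was at 0.37. Cenph, Cenpi, Cenpk and Cenpm, whose products form a complex within this network, were at 0.58, 0.66, 0.62 and 0.66. Cenpi is the 1 member on the X chromosome, and its call held with a sex score in the fit. Cenpm had 714, 933 and 983 counts in Whsc1-KO and 399, 601 and 650.4 in WT, without overlap. It was the 1 of these that passed without Whsc1-KO replicates 4 to 6 (0.51, adjusted p = 0.0373). Cenpl and Cenpn, which bind as a pair near the CENP-A nucleosome, were at 0.39 and 0.67. The complex of Cenpo, Cenpp, Cenpq and Cenpu, which stabilizes attachments, was mixed: Cenpu rose by 0.72 and Cenpp by 0.46, while Cenpo and Cenpq, at 0.10 and 0.11, did not pass (adjusted p = 0.486 and 0.291). Cenpc1, the gene of CENP-C, which ties CENP-A nucleosomes to the outer kinetochore, had 2033, 2303 and 2575 counts in Whsc1-KO and 1993, 2094 and 2371 in WT. These groups overlapped, with a log2 fold change of 0.07 ± 0.06 (adjusted p = 0.366).

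The calls of Cenpl and Cenpp did not hold with every library left out in turn. Cenpl (adjusted p = 0.0359) was lost when Whsc1-KO replicate 4, 5 or 6 was left out (0.0797, 0.0877 and 0.0894), and also without WT replicate 2, 4, 5, 6 or 7 (0.0552, 0.0615, 0.0546, 0.0593 and 0.0581). Its log2 fold change was 0.35, 0.30 and 0.30 in the first 3 of these fits and 0.37 to 0.38 in the other 5, against 0.39 with all libraries. Cenpp (0.0328) was lost without Whsc1-KO replicate 4, 5 or 6 (0.078, 0.0756 and 0.0765) or WT replicate 4 or 7 (0.0638 and 0.065), with log2 fold changes of 0.40, 0.41, 0.41, 0.38 and 0.42 in the same order, against 0.46 with all libraries. Without all 3 of those Whsc1-KO libraries Cenpl was at 0.04 and Cenpp at 0.17, and neither passed. Cenpo was at -0.16 in that fit, with a Whsc1-KO range over replicates 1 to 3 of 746 to 853 counts and a WT range of 799 to 992.

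**Figure D2:**
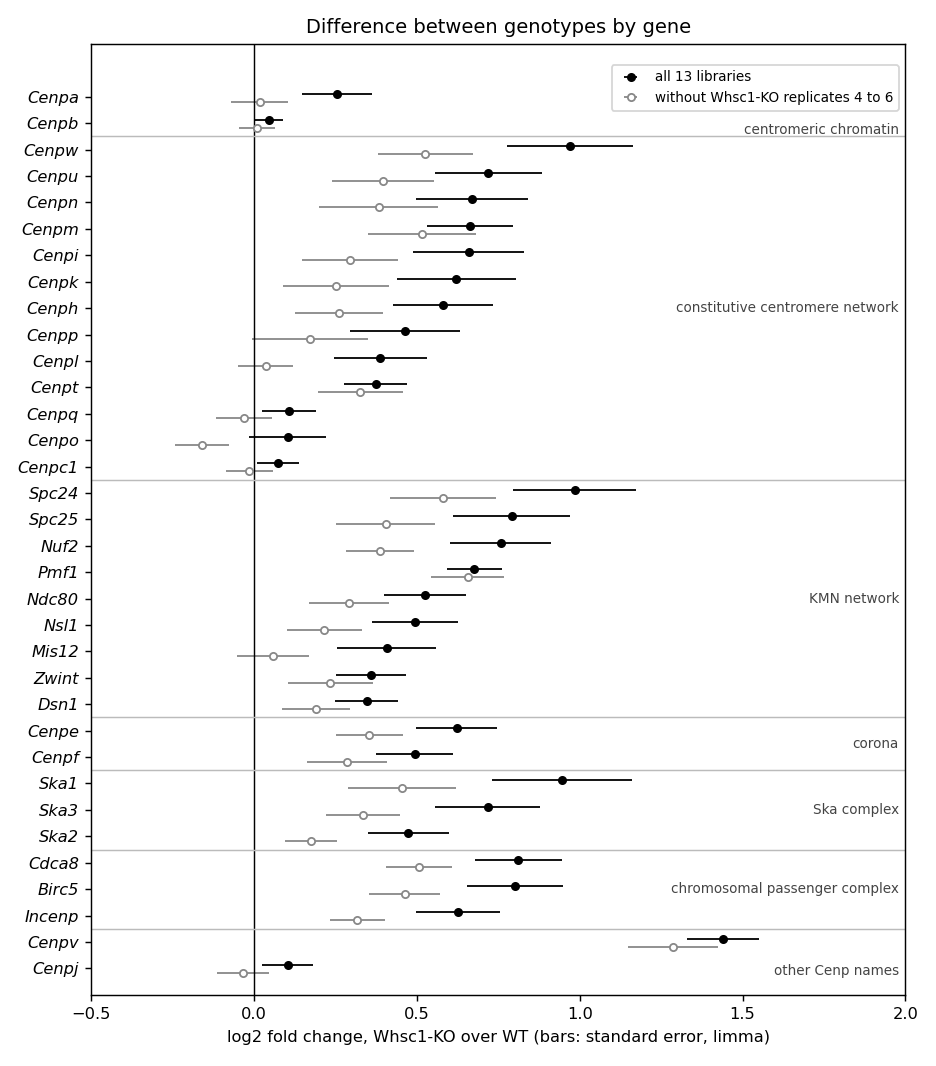
Points give each gene's log2 fold change, Whsc1-KO over WT, with its standard error from limma, for all libraries (filled) and without Whsc1-KO replicates 4 to 6 (open). Open points lie left of filled ones in all 34 genes; Pmf1 (0.66 against 0.68) and Cenpt (0.33 against 0.37) are among those that moved least, and Cenpv is far to the right in both fits.

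All 9 KMN network genes rose, and their median was 0.52 on the log2 scale. The Ndc80 complex, which grips the microtubule, is built of an Ndc80 and Nuf2 pair at its outer end and a Spc24 and Spc25 pair at its inner end; these were at 0.52, 0.76, 0.98 and 0.79. Spc24 had 742, 1276 and 1630.0 counts in Whsc1-KO and 444, 631 and 794 in WT. Whsc1-KO replicate 3 was the 1 library of its group below the highest WT library, and the log2 fold change was 0.98 ± 0.19 (adjusted p = 0.000917). Nuf2 had 1849, 2603 and 3476 in Whsc1-KO and 1216, 1497 and 1831 in WT, where Whsc1-KO replicate 3 cleared the highest WT library, replicate 3, by a narrow margin (adjusted p = 0.00138). In the Mis12 complex, which joins the inner network to Ndc80, Pmf1 was at 0.68, Nsl1 at 0.49, Mis12 at 0.41 and Dsn1 at 0.35. Pmf1 had 2002, 2155 and 2253 counts in Whsc1-KO and 1038, 1429 and 1574 in WT, without overlap. Its Whsc1-KO replicates 1 to 3 (2002 to 2253) and 4 to 6 (2133 to 2250.4) covered nearly the same range, and its log2 fold change was 0.66 without replicates 4 to 6 and 0.51 within replicates 1 to 3, where it passed (adjusted p = 0.00598). Dsn1, the smallest change of the network, had 1122, 1295 and 1511 counts in Whsc1-KO and 816, 1006 and 1196 in WT, with overlap (adjusted p = 0.00862). Zwint, which helps to bring checkpoint proteins to the kinetochore, was at 0.36. Mis12 (adjusted p = 0.0358) was lost without Whsc1-KO replicate 4, 5 or 6 (0.0865, 0.0854 and 0.0873) or WT replicate 1, 2, 6 or 7 (0.0654, 0.071, 0.0563 and 0.0514). Its log2 fold change was 0.34 in each of the first 3 of these fits and 0.38, 0.35, 0.40 and 0.41 in the other 4. Pmf1, Nuf2 and Spc24 were the 3 of the 9 that passed without Whsc1-KO replicates 4 to 6.

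Both corona genes rose. Cenpe, a kinesin that carries chromosomes towards the spindle equator, had 5224, 7449 and 8810.5 counts in Whsc1-KO and 3828, 4575 and 5278 in WT, a log2 fold change of 0.62 ± 0.12 (adjusted p = 0.00114). Cenpf, a large coiled-coil protein that tethers motor proteins, had 4406, 5888 and 6716 in Whsc1-KO and 3117, 4201 and 4522 in WT, a log2 fold change of 0.49 ± 0.12 (adjusted p = 0.00358). In both genes 5 of 6 Whsc1-KO libraries exceeded every WT library. Without Whsc1-KO replicates 4 to 6 Cenpe passed at 0.35 (adjusted p = 0.025) and Cenpf did not, at 0.29 (0.0981).

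All 3 genes of the Ska complex, which holds the kinetochore on shrinking microtubule ends, rose. Ska1 had 306, 573 and 749 counts in Whsc1-KO and 193, 271 and 346 in WT, and its log2 fold change was 0.95 ± 0.21 (adjusted p = 0.00257). Ska2 had 1071, 1357 and 1740.5 in Whsc1-KO and 893, 944 and 1079.8 in WT, at 0.47 ± 0.12 (adjusted p = 0.00604). In each, Whsc1-KO replicates 4 to 6 formed the upper cluster and 1 earlier Whsc1-KO library lay below the highest WT library. Ska3 had 816, 1108 and 1465 in Whsc1-KO and 548, 669.6 and 812 in WT, at 0.72 ± 0.16 with no overlap (adjusted p = 0.00251). It was the 1 of the 3 that passed without those replicates (0.33, adjusted p = 0.0462).

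The chromosomal passenger complex had its 3 members higher both with all libraries and without Whsc1-KO replicates 4 to 6. Cdca8, the gene of borealin, had 2564, 3602 and 4368 counts in Whsc1-KO and 1608, 1986 and 2317 in WT, without overlap, a log2 fold change of 0.81 ± 0.13 (adjusted p = 0.000356). Incenp, the scaffold of the complex, had 5463, 7223 and 8684 in Whsc1-KO and 4101, 4453 and 5564 in WT, at 0.63 ± 0.13 (adjusted p = 0.00139). Its overlap came from WT replicate 3, at 5564, above Whsc1-KO replicate 1. Birc5, the gene of survivin, had 2786, 4124 and 5197 in Whsc1-KO and 1809.7, 2276 and 2699.8 in WT, again without overlap, at 0.80 ± 0.15 (adjusted p = 0.000679). Without Whsc1-KO replicates 4 to 6 the log2 fold changes of Cdca8, Birc5 and Incenp were 0.51, 0.46 and 0.32 (adjusted p = 0.00436, 0.0097 and 0.0179).

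Among genes that carry a Cenp name for other known work, Cenpv had the largest change of the 34. Its product has been tied to centromeric heterochromatin and to the end of cell division in human cells. Cenpv had 185, 251 and 268 counts in Whsc1-KO and 80.4, 86.4 and 101 in WT, so that its lowest Whsc1-KO library stood well above its highest WT library. The log2 fold change was 1.44 ± 0.11 (adjusted p = 9.62e-07), 1.29 without Whsc1-KO replicates 4 to 6, and 1.33 within replicates 1 to 3 (adjusted p = 0.0027). Cenpj, a gene of centriole growth, had 1014, 1163 and 1318 in Whsc1-KO and 956, 1100.3 and 1196 in WT. Its groups overlapped, with a log2 fold change of 0.10 ± 0.08 (adjusted p = 0.286).

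**Figure D3:**
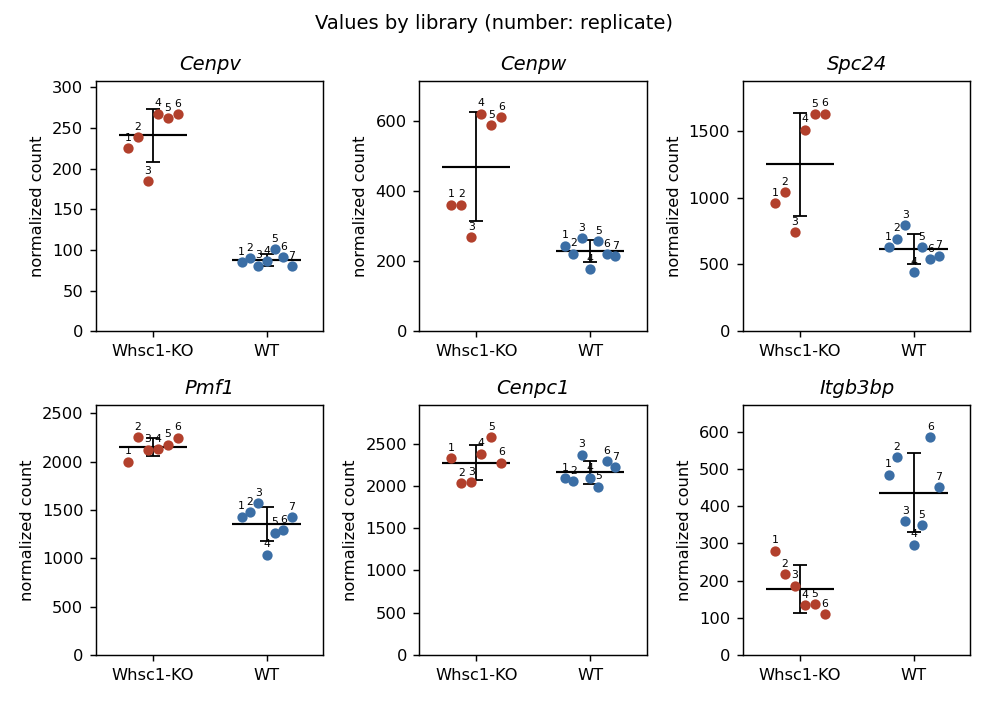
Normalized counts of 6 genes by genotype, 1 point per library numbered by replicate, with the mean (line) and SD (bar). Cenpv and Pmf1 are high in all Whsc1-KO libraries, Cenpw and Spc24 mainly in replicates 4 to 6, Cenpc1 overlaps, and Itgb3bp is lower in every Whsc1-KO library.

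Levels were compared between genes per kilobase of the principal transcript (GENCODE M21), as normalized counts per kb (mean ± SD, n = 6 Whsc1-KO and 7 WT). Cenpa was the most abundant, at 4457 ± 832 in Whsc1-KO and 3695 ± 331 in WT, followed by Birc5 at 4253 ± 1101 and 2385 ± 291. Incenp had 2211 ± 512 in Whsc1-KO and 1406 ± 153 in WT. Cenpu was the lowest, at 113 ± 28.1 in Whsc1-KO and 67.3 ± 10.2 in WT, and Cenpv, for all its change, was the next to lowest in WT, at 85.1 ± 6.88, and had 234 ± 31.5 in Whsc1-KO. The 4 genes of the Ndc80 complex lay close together in Whsc1-KO, where Spc25 had 1163 ± 340, Nuf2 1104 ± 309, Spc24 916 ± 281 and Ndc80 844 ± 170 per kb. In WT the values were 657 ± 129, 636 ± 77.3, 450 ± 82.4 and 581 ± 74.1 in the same order of genes, with Spc24 the lowest. Dsn1, Cenph, Cenpn and Cenpf, neighbours in the WT order, differed by less than their SD, from 388 ± 47.5 to 360.1 ± 49.3 in WT.

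**Figure D4:**
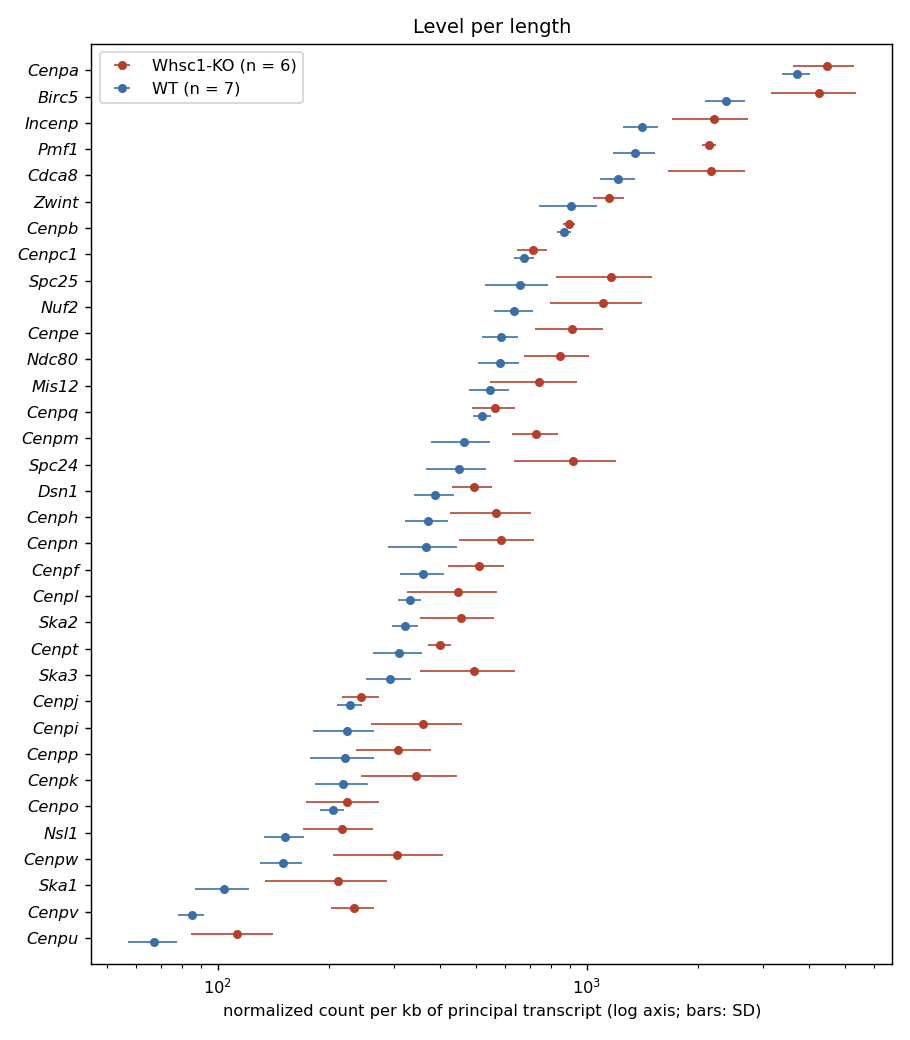
Mean normalized count per kb of principal transcript (log axis) with SD for each gene, Whsc1-KO above WT in each row, ordered by the WT level. Cenpa and Birc5 lead in both genotypes, and the gap between genotypes is widest on this axis for Cenpv (234 against 85.1).

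Promoters were examined because the members rose together and because genes of this kind are known to share the cell cycle homology region (CHR), CCAAT boxes and E2F words in their promoters. RefSeq promoters (GRCm38.p6, 250 bases before to 50 after the start) were found for 30 of the 34 genes, 32 promoters in all, since Cenpk has 3. They are printed for the members with the highest and lowest log2 fold changes among those with a promoter in the RefSeq table, 5′ to 3′, with matches in capitals. The words searched on both strands were CCAAT, the CHR words TTTGAA and TTTAAA, and the E2F word TTCCCGC, and 3 variants of it that carry other letters in the middle, namely TTCGCGC, besides TTGCCGC, and as the last TTGGCGC.
Cenpv (chr11:62539212-62539511, minus strand): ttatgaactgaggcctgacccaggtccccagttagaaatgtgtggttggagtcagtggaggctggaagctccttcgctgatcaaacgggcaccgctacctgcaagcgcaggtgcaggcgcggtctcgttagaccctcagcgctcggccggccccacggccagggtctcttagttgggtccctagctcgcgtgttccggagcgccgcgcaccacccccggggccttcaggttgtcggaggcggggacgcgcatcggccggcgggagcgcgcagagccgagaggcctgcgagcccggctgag
Cenpw (chr10:30200491-30200790, minus strand): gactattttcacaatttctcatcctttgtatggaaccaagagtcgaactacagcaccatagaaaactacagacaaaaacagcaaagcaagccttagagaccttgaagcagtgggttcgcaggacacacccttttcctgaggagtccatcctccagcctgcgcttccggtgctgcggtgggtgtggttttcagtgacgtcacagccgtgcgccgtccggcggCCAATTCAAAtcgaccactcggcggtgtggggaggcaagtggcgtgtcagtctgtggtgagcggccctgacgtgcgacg
Cenpc1 (chr5:86065534-86065833, minus strand): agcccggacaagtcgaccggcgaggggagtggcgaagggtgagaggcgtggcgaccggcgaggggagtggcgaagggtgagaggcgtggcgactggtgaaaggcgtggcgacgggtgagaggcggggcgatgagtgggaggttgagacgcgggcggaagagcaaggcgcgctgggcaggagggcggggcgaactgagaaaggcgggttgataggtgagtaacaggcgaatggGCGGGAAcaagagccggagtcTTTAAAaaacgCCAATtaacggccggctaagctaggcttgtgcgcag
Cenpb (chr2:131180018-131180317, minus strand): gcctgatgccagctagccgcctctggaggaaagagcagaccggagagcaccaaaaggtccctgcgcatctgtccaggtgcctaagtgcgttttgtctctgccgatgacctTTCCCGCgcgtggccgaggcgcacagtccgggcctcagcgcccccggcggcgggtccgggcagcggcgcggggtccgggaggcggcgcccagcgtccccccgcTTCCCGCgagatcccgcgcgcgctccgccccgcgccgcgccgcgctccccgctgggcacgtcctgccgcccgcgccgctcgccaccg

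The promoter of Cenpv, the member with the largest change, held 0 matches. That of Cenpw held CCAAT from base -29, with base -1 just before the start and base 1 at it. A TTCAAA, which is the first CHR word read from the other strand, began at base -25 and shared 1 base with that CCAAT. The promoters of Cenpc1 and Cenpb, whose levels did not pass the test, held matches too: GCGGGAA at -18, TTTAAA at 4 and CCAAT at 15 in Cenpc1, and TTCCCGC at -140 and -37 in Cenpb. Over the 32 promoters, CCAAT was found in 65.6%, against 38% of 12249 promoters of tested genes and 37.4% of all 32851 promoters. TTTGAA was found in 31.2%, against 12.2% and 17.9%, TTTAAA in 25%, against 9% and 13.2%, and an E2F word in 31.2%, against 16.5% and 9.57%. A CHR word together with CCAAT was found in 34.4%, against 7.67% and 10.7%. Nuf2 and Cenpp, which rose, and Cenpj, which did not pass, also held 0 matches in their windows. These are letter matches in a window and give no information on which factor binds.

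Most other genes of cell division examined were higher too. Over all genes tested, 26.1% were called higher and 25.7% lower with all libraries. Without Whsc1-KO replicates 4 to 6 these shares were 14% and 15.6%. Of 31 other centromere, kinetochore and checkpoint genes, 26 were called higher and 1 lower, and their median fold change was 0.58 on the log2 scale. Without Whsc1-KO replicates 4 to 6 the counts were 13 and 1, and 2 were called lower without WT replicate 6 or 7. The 3 smallest adjusted p were those of Stra13, the CENP-X gene, at 0.60 (adjusted p = 0.000223), of Bub3, a spindle checkpoint gene, at 0.51 (0.000255) and of Mad1l1, another, at 0.62 (0.000318). Of 30 mitosis genes 28 rose and 0 fell (median 0.74); the smallest adjusted p were those of Cdc20 at 1.13, Ube2c at 1.07 and Mki67 at 0.74, and 23 were higher without Whsc1-KO replicates 4 to 6. Of 34 S phase genes 32 rose and 0 fell (median 0.62); the smallest adjusted p were those of Ccne1 at 1.23, Mcm5 at 0.93 and Rrm2 at 1.17, and 17 were higher without those replicates. At an unadjusted p under 0.05, and in edgeR and DESeq2, 0 mitosis and 0 S phase genes were lower. These lists share the libraries with the 34 genes, and in all 3 sets the mean level was highest in Whsc1-KO replicates 4 to 6 and lowest in WT replicate 4.

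**Figure D5:**
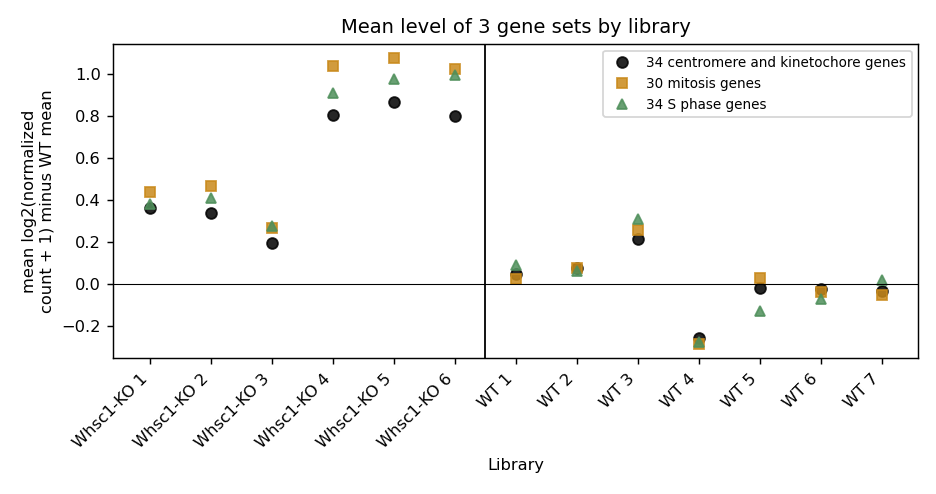
Mean log2(normalized count + 1) minus the WT mean in each library for the 34 centromere and kinetochore genes, 30 mitosis genes and 34 S phase genes. All 3 sets are highest in Whsc1-KO replicates 4 to 6, WT replicate 3 is level with Whsc1-KO replicate 3 in the 34 genes (0.21 and 0.20), and WT replicate 4 is lowest.

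Itgb3bp, the gene of CENP-R, a further subunit of the complex of Cenpo, Cenpp, Cenpq and Cenpu that the symbol rule does not catch, was the 1 gene of these called lower; it was chosen after its values were seen. It had 110.0, 162 and 281 counts in Whsc1-KO and 296, 451 and 585 in WT, without overlap. Its log2 fold change was -1.33 ± 0.22 (adjusted p = 0.000361), and -0.92 without Whsc1-KO replicates 4 to 6 (adjusted p = 0.00873). The gene spans 164.4 kb (chr4:99765402-99929813, minus strand, GRCm38), and among the 34 Cenpp has the longest span, 188.8 kb (chr13:49464023-49652785, minus strand), with a log2 fold change of 0.46. In the same list as Itgb3bp, Mad1l1 (312.9 kb), Clasp1 (223.6 kb) and Clasp2 (178.2 kb) have longer spans, with log2 fold changes of 0.62, -0.11 and -0.07. A relation between span and fold change was not tested. Casc5, the gene of the KMN subunit KNL1, and Apitd1, the gene of CENP-S, also lie outside the symbol rule and were chosen after their values were seen. Both rose, by 0.61 and 0.77.

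Several members overlap genes on the opposite strand in exons, and the sources used here do not say whether counting used the strand. The largest overlaps were 1380 bases of Cenpo with Adcy3 and 1069 bases of Cenpu with Primpol, followed by 329 bases of Ska2 with Gm11491 and 315 bases of Cenpp with Ippk; values of these members may include reads from their neighbours. Cenpv (chr11:62524946-62539261, minus strand), Cenpw (chr10:30194569-30200560, minus strand), Spc24 (chr9:21755442-21760303, minus strand) and Pmf1 (chr3:88394143-88410331, minus strand) had no such overlap in the annotation.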

How the data were processed

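For 13 libraries the authors deposited normalized gene counts, a signal in which every count was divided by its library's size factor. Per the file headers each column is 1 genotype and replicate, and 100% of values were whole reads within 0.05 reads once the factor was undone. The authors also deposited a log2 fold change and p-value per gene. The submitters' processing notes name the tools RSEM 1.2.28, STAR 2.5.1b and DESeq2 1.10.1 beside 2 builds, mm9 and GRCm38, and assign no roles. An aligner setting or strand setting is not given in the sources used here.

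The test was limma 3.58.1 with a trend, in R 4.3.3, on log2(normalized count + 1), two-sided, for 13947 genes with 10 or more in at least 6 libraries; 33696 were left out. Fold changes on this scale understate changes of low genes. edgeR 4.0.16 and DESeq2 1.42.0 ran on the recovered reads as alternatives, beside other pseudocounts, filters, scalings, library weights, a replicate block, a sex score and libraries left out. Scripts were tested on simulated data. Depth was at least 38881663 reads in genes. The p-values set the genotype difference against the spread between libraries of a genotype, which in Whsc1-KO holds the split of replicates. The members, lists, tests and the split of Whsc1-KO replicates were chosen with earlier results of these data known. Every member is named; the lowest, median and highest library are given for the largest and smallest change of each role, besides Pmf1, Nuf2, Cenpm, Ska3 and Birc5, chosen after their values were seen. Up to 3 genes of smallest adjusted p are named per list. Coordinates come from GENCODE M21 on GRCm38. Python 3.11.15 with pandas 2.3.3 and matplotlib 3.10.9 prepared tables and plots.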

Additional observations from a re-analysis of the deposited data

Results flagged for a closer look

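Dixon's criterion was applied to 70 pairs of a gene and a genotype (the 34 members and Whsc1), and 4 had a library far from the others of its group; chance alone flags about 1 in 20. Cenpt was low in Whsc1-KO replicate 3, at 625.66 normalized counts, where the other Whsc1-KO libraries had 722 to 759. Incenp was high in WT replicate 3, at 5564, where the other WT libraries had 4101 to 4707. Zwint was also high in WT replicate 3, at 3261.55, where the others had 1937 to 2487. Nsl1 was low in WT replicate 4, at 559.22, where the others had 715 to 828. WT replicates 3 and 4 were the highest and lowest WT libraries over the 34 genes on average, at 0.21 and -0.26 on the log2 scale relative to the WT mean. The calls of these 4 genes did not change when the library in question was left out.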

How the results depend on the processing

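Leaving out Whsc1-KO replicates 4 to 6 gave 11 members, 17 S phase genes and 13 other kinetochore genes called higher, 1947 genes higher and 2177 lower over all, and a member median of 0.29. Replicates 1 to 3 alone gave 3 members, 3 S phase, 8 mitosis and 1 other kinetochore genes higher, 947 and 1222 genes over all, and a median of 0.16; replicates 4 and later alone gave a median of 0.94. Fewer libraries entered each of these fits, and that of replicates 4 and later called 32 members higher, against 28 with all libraries. The cause of these shifts was not tested. Log2 fold changes that turned negative, without Whsc1-KO replicates 4 to 6 and within replicates 1 to 3, were Cenpc1 (-0.015 and -0.024), Cenpj (-0.035 and -0.11), Cenpo (-0.16 and -0.25) and Cenpq (-0.032 and -0.10); within replicates 1 to 3 alone they were also Cenpb (-0.023), Cenpl (-0.043) and Cenpp (-0.071). None of these passed. Other kinetochore genes called lower were 2 under upper quartile scaling, median centring, library weights and DESeq2. With each library left out in turn, members higher ranged from 25 to 29, members lower were 0 throughout, other kinetochore genes lower ranged from 1 to 2 and the member median from 0.51 to 0.68. At an adjusted p under 0.01, 23 members were higher. Scalings moved the median of all genes by under 0.1. Library weights called 32 members higher, adding Cenpa, Cenpj, Cenpo and Cenpq, with 4653 genes higher over all against 3636. With no filter Cenpl no longer passed (adjusted p = 0.05), and with a sex score Cenpj passed (0.0395).

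No clear sign was seen that replicate numbers pair the samples. Same-number correlations ran from -0.108 to 0.206, with 2 of 6 over 0.1, and 2 of 6 Whsc1-KO libraries correlated best with their own number. These correlations use deviations from each genotype's mean, which hold the split of the Whsc1-KO replicates, so they cannot settle whether samples were paired. With a replicate block 24 members were called higher and 0 lower; Cenpl, Cenpp, Dsn1 and Zwint did not pass (adjusted p = 0.0965, 0.144, 0.0608 and 0.054), at log2 fold changes of 0.38, 0.42, 0.33 and 0.36, against 0.39, 0.46, 0.35 and 0.36 without it.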
